A study of Homo sapiens with 4 samples.

Results

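Of the 28283 genes in the deposited expression table, 67 are annotated there with the KEGG term for the complement and coagulation cascades, and these 67 genes were followed in A549 cells with and without an shRNA against YTHDF2. The term was chosen by measured values: it was selected on the share of its genes whose level differed between the same input libraries that are described here. Differences in level between the conditions are therefore given as a description, with no test. A549 is a human lung adenocarcinoma line. The control cells (labelled shNC, source PLKO_1) carried the control vector, and the knockdown cells (labelled shY2-2) carried 1 shRNA against YTHDF2. Both were grown in RPMI medium with serum, the knockdown was a stable lentiviral line, and no source used here says that the libraries came from separate cultures. Poly(A) RNA of each condition was fragmented and sequenced before (input) and after (IP) pulldown with an m6A antibody, which gave 4 libraries. With 1 library of each kind per condition, no value has a replicate error and no p-value for a difference was computed.

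The plasma cascades that these genes encode are chains of proteases and their inhibitors. Coagulation ends when thrombin cuts fibrinogen into fibrin, and fibrinolysis removes the fibrin again through plasmin. Complement tags surfaces with fragments of C3 and can end in a membrane pore, and host cells carry membrane proteins that stop it. Most of the soluble proteins come from hepatocytes, and several are acute-phase proteins, but epithelial and tumor cells transcribe some of them too. YTHDF2 is a cytoplasmic reader protein that binds m6A in mRNA and is known for promoting the decay of the mRNAs it binds.

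YTHDF2 itself had an FPKM (fragments per kilobase of exon relative to all mapped fragments) of 3.56 in shNC input RNA and 1.02 in shY2-2 input RNA. The log2 ratio, computed throughout as log2((FPKM shY2-2 + 1)/(FPKM shNC + 1)), was -1.18 for this gene. A gene was kept if either input library reached an FPKM of 1, which left 12268 genes. Since these values carry no read counts, the depth of the libraries is unknown. The median log2 ratio over the kept genes was 0.002. The labelled cell type was checked against marker lists. All 6 epithelial keratin and adhesion markers were kept and all were lower in shY2-2, with a summed FPKM of 1597 in shNC and 1021 in shY2-2. No alveolar marker was kept, and the highest FPKM among the 3 that were listed was 0.252. No endothelial marker was kept either (highest FPKM 0.0869), and the leukocyte marker PTPRC had an FPKM of 0.0999 in shNC and 0.0394 in shY2-2. The leukocyte list otherwise held CD14 and CD68, kept in both libraries and lower in shY2-2, with CD68 at 12.2 and 10.2. Of the fibroblast list COL1A1 was kept, at 0.834 and 1.64. The markers COL1A2, COL3A1, DCN and LUM of that list were under the filter and lower in shY2-2. Of the platelet list GP1BA was kept, at 0.934 and 1.06. PF4 and PPBP were under the filter and lower in shY2-2, and ITGA2B was under the filter and higher. Among 4 listed hepatocyte markers only CPS1, the urea cycle enzyme, was kept, at 6.17 in shNC and 3.38 in shY2-2. What part the lower epithelial markers and CPS1 have in the values of the members was not tested. In a bulk library, fewer cells that express a gene and less RNA per cell cannot be told apart.

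Of the 67 members, 30 were kept and 37 were not. Among the 30 kept members, 24 had a lower FPKM in shY2-2 and 6 a higher one (80.0% lower, against 49.7% of all kept genes). A log2 ratio below -1 was seen for 8 of them (26.7%, against 2.14% of all kept genes) and a log2 ratio above 1 for 1 (3.33%, against 0.986%). These shares are what chose the term and are not read further. The median log2 ratio of the kept members was -0.61. Their summed FPKM was 502.9 in shNC and 356.9 in shY2-2. Near the limits, THBD (-1.04) and F2RL2 (1.02) lay just inside and A2M (-0.94) just outside. A2M, BDKRB2, CFB and FGG passed the filter through the shNC library alone and C5AR1 through the shY2-2 library alone, so these 5 had to differ. Over the 25 members that reached an FPKM of 1 in each library, the median log2 ratio was -0.60, and 20 were lower in shY2-2. Over all 11153 genes that did so, the median was 0.01 and 5448 were lower.

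**Figure D1:**
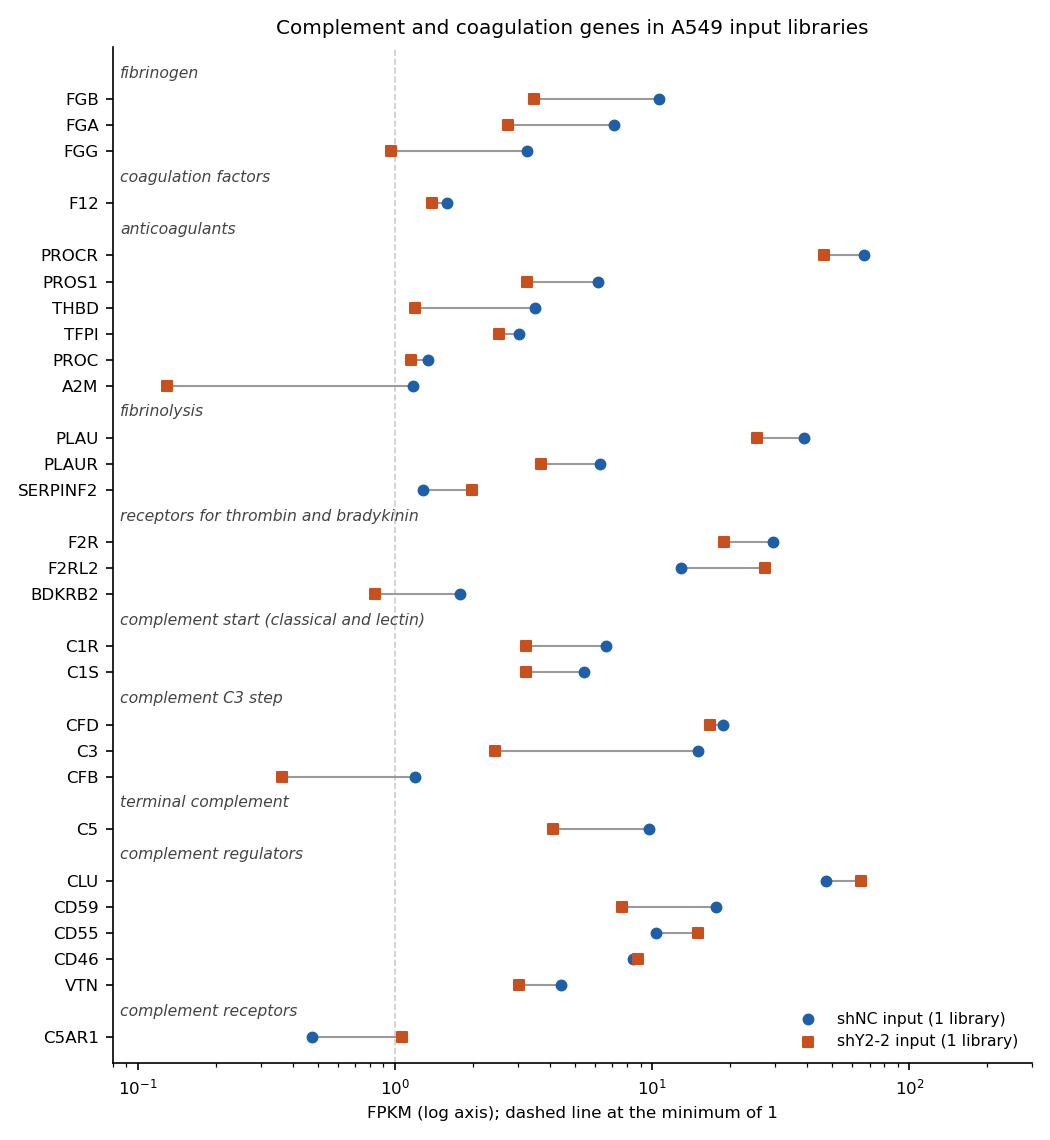
FPKM of 28 kept complement and coagulation genes in the shNC (circles) and shY2-2 (squares) input libraries, 1 library each, on a log axis and grouped by role. For 22 of the 28 genes the square lies to the left of the circle, most widely for A2M and C3, while SERPINF2, F2RL2, CLU, CD55, CD46 and C5AR1 lie the other way.

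**Figure D2:**
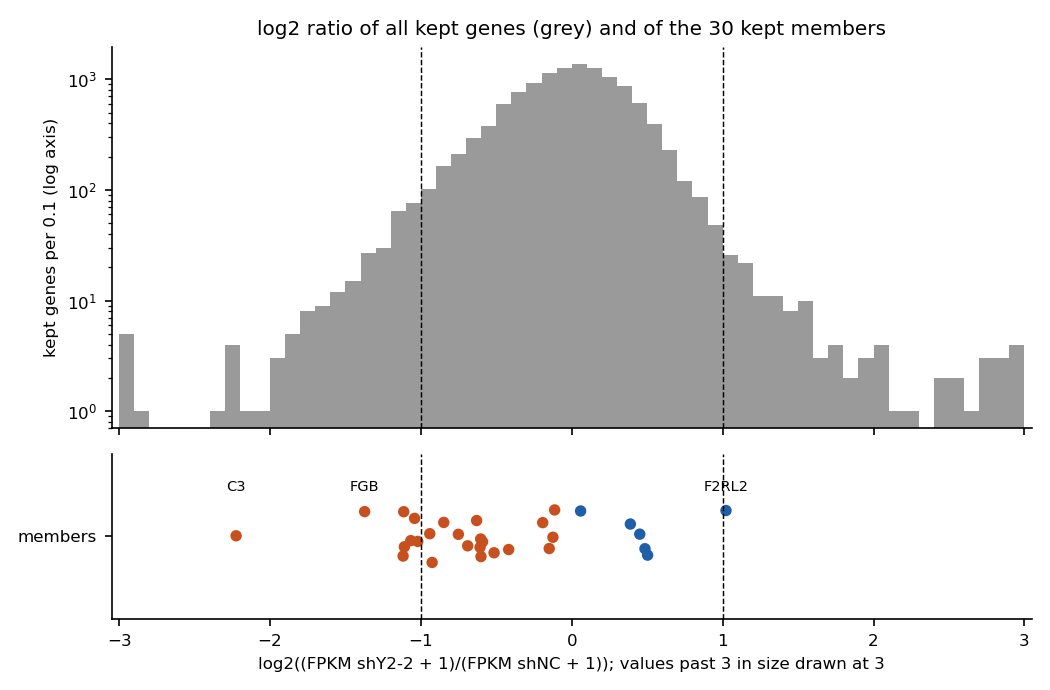
Histogram of the log2 ratio of shY2-2 over shNC for the 12268 kept genes (log axis of counts) above the ratios of the 30 kept members, with dashed lines at -1 and 1 and vertical scatter without meaning. The members are spread to the left of 0, with C3 at -2.22 and FGB at -1.37 farthest out and F2RL2 at 1.02 on the right.

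All 3 fibrinogen genes were lower in shY2-2, but FGG had to be, because it passed the filter through the shNC library alone. FGB, which encodes the beta chain, had an FPKM of 10.6 in shNC and 3.48 in shY2-2 (log2 ratio -1.37). FGA, the alpha chain gene, stood at 7.07 and 2.74 (log2 ratio -1.11). FGG, the gamma chain gene, stood at 3.25 and 0.964 (log2 ratio -1.11). The protein holds the 3 chains in equal numbers, and the order of the mRNA levels per length, FGB above FGA above FGG, was the same in both libraries. FGB made up 50.7% of the summed FPKM of the 3 genes in shNC and 48.5% in shY2-2, FGA 33.8% and 38.1%, and FGG 15.5% and 13.4%. The sum over the 3 genes was 20.9 in shNC and 7.18 in shY2-2.

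The 3 genes lie side by side on chromosome 4 of GRCh38, from 154562956 to 154612967, which is 50.0 kb, with FGB on the + strand and FGA and FGG on the - strand. Their promoters are shown because transcription of this cluster is known to respond to IL-6 signals in the acute phase. The windows of FGA (chr4:154590743-154590992, - strand) and FGB (chr4:154562730-154562979, + strand) are the 250 bases before the start of transcription in RefSeq on GRCh38.p14, and for FGG (chr4:154612800-154612828, - strand) 29 bases around its single match are given. Capitals mark the letters GTTAAT, a motif of liver promoters, read here on the other strand as ATTAAC, and CTGGGAA, an element of acute-phase promoters.
FGA: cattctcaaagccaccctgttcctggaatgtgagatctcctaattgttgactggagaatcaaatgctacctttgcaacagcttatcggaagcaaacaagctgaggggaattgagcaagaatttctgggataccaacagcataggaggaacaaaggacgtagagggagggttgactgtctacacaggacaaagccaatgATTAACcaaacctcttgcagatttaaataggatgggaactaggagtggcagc
FGB: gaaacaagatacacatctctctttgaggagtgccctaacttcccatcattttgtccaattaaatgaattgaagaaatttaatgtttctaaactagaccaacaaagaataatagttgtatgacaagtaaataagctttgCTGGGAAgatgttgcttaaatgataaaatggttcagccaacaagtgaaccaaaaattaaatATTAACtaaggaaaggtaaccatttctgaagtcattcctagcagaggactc
FGG: gtgtgcaaaatCTGGGAAcctgacagtat
In FGA the ATTAAC lies 52 to 47 bases before the start and in FGB 51 to 46 bases before it. The CTGGGAA of FGB lies 112 to 106 bases before the start and that of FGG 161 to 155 bases before its RefSeq start. The FGG bases shown lie inside the span of FGG in the deposited data, which reaches 154612967. They are thus not upstream of the gene as measured here.

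Both letter strings were searched on both strands in the windows of 250 bases before to 50 bases after the start, which RefSeq gave for 21 of the 30 kept members. GTTAAT was found for 5 of the 21 (FGA, FGB, C5, C1R and PROC) and for 8.27% of all 27305 genes with a window. CTGGGAA was found for FGB and FGG and for 13.1% of all genes. TTCNNNGAA, the letters of the STAT motif, was found for 6 members (FGA, C1R, CD59, CFB, PROS1 and VTN) and 9.38% of all genes. TGACTCA, the AP-1 motif, was found for 3 members (CD59, F2RL2 and PLAUR) and 6.05% of all genes, and TGTTTAC, a forkhead motif, for PROS1 and 4.19% of all genes. Some genes have several windows, and a match in any of them was counted. A match describes letters in a window and is not evidence of binding.

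All 3 fibrinogen genes had m6A peaks in both peak lists, which the authors called on 1 IP library against 1 input library of each condition. On the reference transcript of FGA (GENCODE release 44, 2209 nt), the shNC peak ran from nt 516 to nt 2194 with a fold enrichment of IP over input of 2.21 and a false discovery rate (FDR) of 1.62e-06. In shY2-2, 3 shorter peaks lay within that stretch, with fold enrichments of 2.57, 1.65 and 2.28. The shNC peak covered 76.0% of the transcript and the shY2-2 peaks 53.0%. The shY2-2 peaks lay in exon 5, which encodes the alphaC region, and the shNC peak reached from there into the preceding exon. FGB had 1 peak over its stop codon in each list (fold enrichment 1.82 in shNC and 2.17 in shY2-2, FDR 2.51e-05 and 0.00178), plus a shY2-2 peak farther into the 3′-UTR. For FGG the peak that met between the lists lay partly in the coding sequence and partly outside the reference transcript, with a fold enrichment of 2.37 (FDR 0.0316) in shNC and 2.31 (FDR 0.354) in shY2-2.

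The letters GGAC, the most common core of the m6A consensus, occurred 11 times in the FGA transcript. Of these, 10 lay in the shNC peak and 8 in the shY2-2 peaks, which covered 76.0% and 53.0% of the transcript. The whole FGA transcript held 4.98 GGAC per kb, against 3.76 over all kept genes found in release 44. Whether GGAC was denser in the peaks was not tested. The letters are shown to make visible that these peaks hold consensus letters. Each 21-nt window below is centered on the A of a GGAC, in capitals, that lay in peaks of both lists; the first FGA window occurred 2 times, 78 nt or 26 codons apart, in the repeats of the alphaC region. The A is at chr4:154586526 and chr4:154586448 (first FGA window, - strand), chr4:154586477 (second FGA window, - strand), chr4:154570524 (FGB, + strand), chr9:120952505 (C5, - strand), chr11:33710238 (CD59, - strand) and chr17:1754854 (SERPINF2, + strand) of GRCh38.
FGA repeat: ggagctctGGACctggaagta
FGA second: gactggagGGACtgcaacctg
FGB: actggggtGGACagtacacct
C5: aggttattGGACaccggaaac
CD59: tgcaagaaGGACctgtgtaac
SERPINF2: gtcagctgGGACaccccgact
The FGA, FGB and CD59 windows lie in coding sequence, and those of C5 and SERPINF2 in the 3′-UTR. Peaks of this length do not resolve single bases, so which A, if any, carried m6A is unknown.

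Among the coagulation factors, 1 of 10 members was kept. F12, the protease that starts contact activation, had an FPKM of 1.59 in shNC and 1.39 in shY2-2 (log2 ratio -0.11). Exons of GRK6 on the opposite strand overlap 12.6% of its transcript, and GRK6 stood at 8.75 and 13.6. Tissue factor (F3), which starts coagulation at the cell surface, had nearly equal values of 0.883 and 0.895, and F8 and F2 stood at 0.958 and 0.726 and at 0.662 and 0.606, all under the filter. F12, F2, F3 and F8 had peaks in the shNC list and none in the shY2-2 list. The F12 peak had an FDR of 0.0363. The peaks of F2, F3 and F8 had FDRs of 0.0977 or above. Their pairs of p-value and fold enrichment each recur in 64 or more peaks of that list, so these values are not particular to them.

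All 6 kept anticoagulant genes were lower in shY2-2, where 49.7% of all kept genes were lower. A2M, 1 of the 6, had to be lower because it passed the filter through the shNC library alone. THBD, thrombomodulin, which turns thrombin toward protein C, had an FPKM of 3.51 in shNC and 1.19 in shY2-2 (log2 ratio -1.04). PROCR, the endothelial protein C receptor, was the highest of these genes, at 66.8 and 46.4 (log2 ratio -0.51). PROS1, protein S, the cofactor of activated protein C, stood at 6.16 and 3.25 (log2 ratio -0.75). The receptor and cofactor side of the protein C pathway thus had log2 ratios from -1.04 to -0.51. PROC, protein C itself, differed less, at 1.35 and 1.15 (log2 ratio -0.12), and so did TFPI, the inhibitor of tissue factor, at 3.04 and 2.54 (log2 ratio -0.19). A2M, the broad protease trap alpha-2-macroglobulin, stood at 1.17 and 0.129, a 9.03-fold lower level whose log2 ratio of -0.94 is held small by the added 1.

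Peaks of the protein C pathway were found mostly in the shNC list. PROCR had an shNC peak over its stop codon from nt 686 to nt 1340 (fold enrichment 1.91, FDR 6.31e-27) and no shY2-2 peak. Its FPKM in shY2-2 was 46.4, and why no peak was called there was not tested. PROS1 had 2 shNC peaks (fold enrichment 2.18 and 2.07) and PROC 1 (10.7), and neither had one in shY2-2. THBD had 3 shNC peaks and 1 shY2-2 peak, which met in the coding sequence (fold enrichment 1.92 with FDR 0.038, and 2.64 with FDR 0.22). TFPI had 1 peak in each list at different places. A2M had 3 shY2-2 peaks and no shNC peak, with fold enrichments of 6.94, 6.94 and 8.09 and FDRs of 0.603 or above. Exactly the same pair of p-value and fold enrichment recurs in 539 or 1036 peaks of that list, so these values are not particular to A2M.

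Of the 7 fibrinolysis genes, 4 were kept. PLAU, the urokinase gene, stood at 39.0 and 25.5 (log2 ratio -0.59), and its receptor PLAUR at 6.25 and 3.68 (log2 ratio -0.63). The activator and its receptor were thus both lower in shY2-2. SERPINF2, the plasmin inhibitor alpha-2-antiplasmin, went the other way, from 1.28 to 1.98 (log2 ratio 0.39). PLAT, tissue plasminogen activator, was under the filter at 0.818 and 0.377, yet had the highest fold enrichment of any member peak, 22 over the stop codon in shY2-2 (FDR 0.000138).

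SERPINF2 had 1 peak in the 3′-UTR in each list, with fold enrichments of 6.61 and 5.51. These peaks shared 417 bases. PLAU had 3 peaks in shNC, none of which met its shY2-2 peak, which covered 564 nt at the end of the 3′-UTR (fold enrichment 3.08, FDR 1.58e-12). PLAUR had a peak over its stop codon in both lists (fold enrichment 1.79 and 1.49).

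The receptors for thrombin and bradykinin were mixed. F2RL2, the protease-activated receptor PAR3, had an FPKM of 12.96 in shNC and 27.3 in shY2-2, a 2.11-fold higher level and the single log2 ratio above 1 among the members (1.02). F2R, the main thrombin receptor PAR1, lies in the same cluster on chromosome 5 and stood at 29.5 and 19.1 (log2 ratio -0.60). The pair of thrombin receptors thus differed in direction, and their order turned: F2R was higher than F2RL2 in shNC and lower in shY2-2. BDKRB2, the constitutive bradykinin receptor B2, stood at 1.79 and 0.834 (log2 ratio -0.60), with 11.99% of its transcript shared with an unnamed gene of the same strand. The peaks of BDKRB2 in the lists, both in the 3′-UTR, did not meet. F2RL2 had 1 shNC peak over its start codon (fold enrichment 2.67, FDR 0.0126) and none in shY2-2. F2R had peaks in the coding sequence and the 3′-UTR in both lists, the latter with fold enrichments of 2.27 (FDR 3.98e-22) and 2.12 (FDR 3.98e-14).

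The log2 ratio farthest from 0 of any member was at the C3 step of complement, although A2M had the larger ratio without the added 1. C3, the protein on which all complement pathways converge, had an FPKM of 15.1 in shNC and 2.45 in shY2-2, a 6.17-fold lower level. Its log2 ratio of -2.22 ranked 10th lowest among the 12268 kept genes. CFB, factor B, the protease partner of C3b in the alternative pathway, stood at 1.20 and 0.362 (log2 ratio -0.69). CFD, factor D, which cuts factor B, differed little, at 18.8 and 16.8 (log2 ratio -0.15). CFD was thereby the highest of the 3 genes in both libraries. For CFB, 90.8% of the exon sequence is shared with an unnamed gene of the same strand, so its values cannot be separated from that gene.

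C3 had 5 peaks in shNC and 2 in shY2-2, but the peak with the highest fold enrichment in each list (3.49 in shNC, 3.20 in shY2-2, FDR 1.82e-10 and 2.00e-08) was the pair that met, and it lay wholly in exons of GPR108, the neighbouring gene on the same strand. GPR108 had an FPKM of 12.1 in shNC and 10.4 in shY2-2 and no peak under its own name in either list. Leaving that pair aside, C3 had 4 shNC peaks, the strongest over its stop codon (fold enrichment 2.29, FDR 1.35e-06), and 1 shY2-2 peak in the coding sequence (fold enrichment 2.10, FDR 0.308), and none of them met. C3 thus had no region that was a peak in both lists within its own reference transcript.

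At the start of the classical pathway, C1R and C1S encode the paired proteases of the C1 complex and lie within 104.3 kb on chromosome 12. C1R had an FPKM of 6.61 in shNC and 3.23 in shY2-2 (log2 ratio -0.85), and C1S 5.43 and 3.22 (log2 ratio -0.61). The 2 genes had nearly the same level in shY2-2. Exon sequence over 25.2% of the C1R transcript is shared with C1RL, which stood at 4.97 and 5.91. The other 8 members of this group, among them the C1q chains, C2 and C4, were not kept. Both genes had peaks over the stop codon in both lists. C1S had the higher fold enrichment there in shNC (4.00, FDR 1.26e-15) than in shY2-2 (2.37, FDR 3.24e-07), and C1R the lower (2.37, FDR 2.88e-08, and 3.47, FDR 2.14e-10).

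Of the terminal components, which form the membrane pore, C5 alone was kept, at 9.71 in shNC and 4.11 in shY2-2 (log2 ratio -1.07). C6, C7 and C8G were under the filter, so these cells held transcripts for the first terminal component without its later partners at this limit. C5 had 3 shNC peaks and 2 shY2-2 peaks, which met in 2 places over 182 bases in all. The pair at the 3′ end met in the 3′-UTR (fold enrichment 1.71 with FDR 0.16 in shNC, 8.09 with FDR 0.00562 in shY2-2). The value 8.09 recurs in the shY2-2 list at another p-value, as for A2M, while its pair with the p-value of this peak occurs in 1 peak. The step from 1.71 to 8.09 is therefore not read as a size of change.

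Complement regulators were split. CD59, the membrane protein that stops pore assembly, had an FPKM of 17.8 in shNC and 7.65 in shY2-2 (log2 ratio -1.12). CD55, which speeds the decay of C3 convertases, stood at 10.3 and 15.0 (log2 ratio 0.50), and CD46, the cofactor for cleavage of C3b, at 8.41 and 8.80 (log2 ratio 0.06). In shNC, CD59 was thus the highest of the 3 membrane regulators and in shY2-2 the lowest. Of the soluble regulators, VTN, vitronectin, stood at 4.40 and 3.04 (log2 ratio -0.42). CLU, clusterin, was the highest regulator, at 47.4 and 65.1 (log2 ratio 0.45). The transcript of VTN shares 20.2% of its exon sequence with an unnamed gene of the same strand, and that of CD59 8.26%. As a group the 6 kept regulators had a summed FPKM of 91.4 in shNC and 100.7 in shY2-2, and the 5 besides CLU had 44.05 and 35.6, with 3 of the 6 lower and 3 higher. The C5a receptor C5AR1 was the 1 kept complement receptor, at 0.476 and 1.07 (log2 ratio 0.49).

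CD59 carried the peaks with the lowest FDR of any lowered member. Its shNC peak over the stop codon had a fold enrichment of 2.68 (FDR 1.00e-105), and the shY2-2 peak there 3.85 (FDR 1.58e-73). The shY2-2 peak also took in 2577 bases outside the reference transcript. CLU had 3 peaks in each list at matching places, the one over the stop codon with fold enrichments of 2.14 and 2.60 (FDR 1.26e-80 and 1.00e-120). CD55 peaks met in the 3′-UTR (2.71 and 1.76), and so did those of CD46 (1.66 and 2.02). VTN had no peak in either list.

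**Figure D3:**
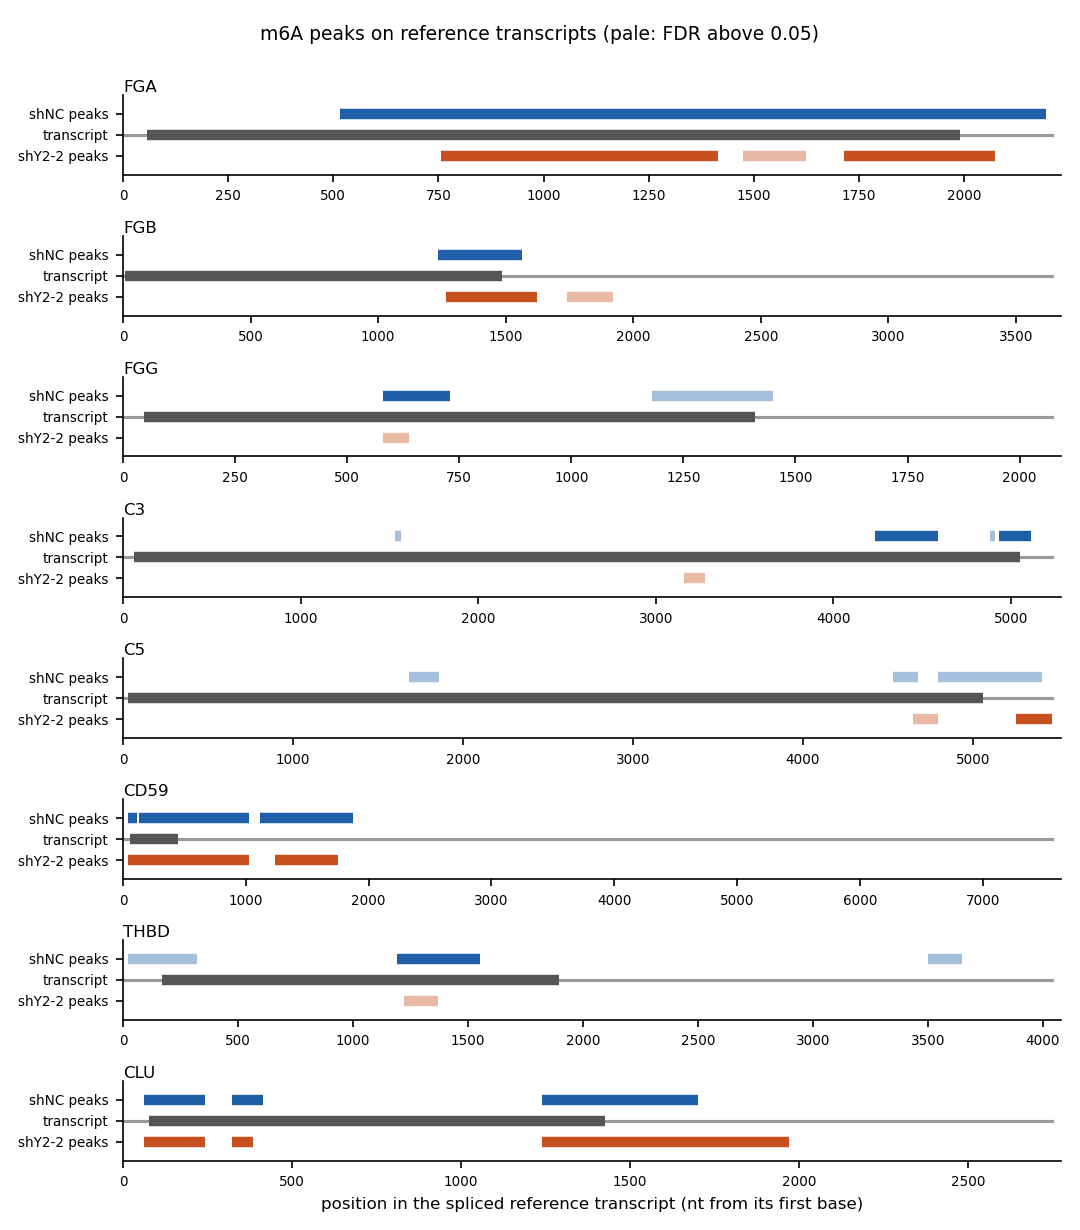
Peaks of 8 members along their spliced reference transcripts in nt, with the shNC list above and the shY2-2 list below the transcript (thick grey, coding sequence), drawn from the first to the last base and pale where the FDR is above 0.05. FGB, CD59 and CLU have peaks over the stop codon in both lists, while the C3 peaks drawn here do not meet, since the pair inside GPR108 lies outside the C3 transcript.

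Over all members, the deposited lists hold 69 shNC peaks and 51 shY2-2 peaks. Among the 30 kept members, 28 had a peak in shNC (93.3%, against 81.2% of all kept genes), 21 in shY2-2 (70.0%, against 78.4%) and 20 in both (66.7%, against 72.7%). The 8 members with a log2 ratio below -1 all had a peak in shNC, and 7 of them had one in both lists. Of these, C3 had peaks that met only inside GPR108. At an FDR of at most 0.05, FGG and THBD had peaks in shNC only and C5 in shY2-2 only. Of the 21 kept members between the limits, 13 had peaks in both lists. The share with peaks among all kept genes below -1 was not counted, so these numbers are not read further. Peaks in shNC only were found for 8 kept members (26.7%, against 8.58% of all kept genes), among them C5AR1, CFD, F12, F2RL2, PROC, PROCR and PROS1. Peaks in shY2-2 only were found for 1 kept member, A2M (3.33%). The peaks were called against the same input libraries whose levels chose the term. What part those levels have in these shares was not tested, and the shares are not read further. Of the shNC member peaks, 46.4% met a shY2-2 peak by at least 1 exonic base on the same strand, against 55.9% of all 31057 shNC peaks. In the other direction, 66.7% of the shY2-2 member peaks met a shNC peak, against 65.4% of all 27344.

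At an FDR of at most 0.05, 13 members had peaks in both lists (among them C1R, C1S, C3, CD46, CD55, CD59, CLU, F2R, FGA, FGB, PLAU and SERPINF2), 11 in shNC only and 4 in shY2-2 only. Of the 30 kept members, 13 had such peaks in both lists (43.3%, against 51% of all kept genes), 9 in shNC only (30.0%, against 13.8%) and 3 in shY2-2 only (10.0%, against 5.83%). For the reason given above, these shares are not read further either. The C3 entry rests in shY2-2 on the peak inside GPR108. The median fold enrichment was 2.37 for member peaks in shNC and 2.60 in shY2-2, where all peaks of the lists had 2.17 and 2.26. In the authors' annotation 50.7% of the shNC member peaks and 64.7% of the shY2-2 member peaks were assigned to the 3′-UTR, against 59.1% and 59.5% of the lists. GGAC was found in 65.2% and 72.5% of the member peaks, against 61.0% and 60.6% of the lists. Of the member peaks, 14 in shNC and 17 in shY2-2 had a pair of p-value and fold enrichment that 20 or more peaks of the list carry, as described for A2M.

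**Figure D4:**
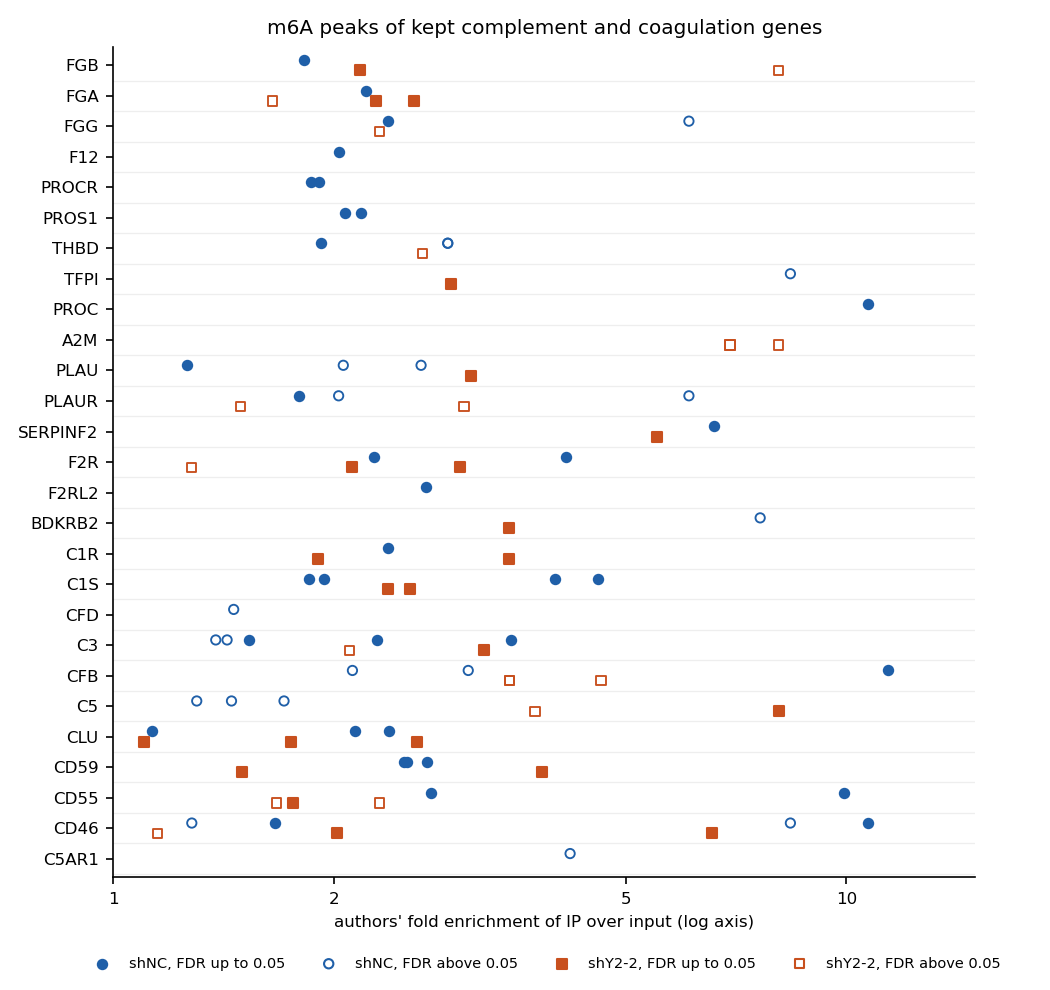
Fold enrichment of IP over input, as deposited, on a log axis for each peak of 27 kept members, in shNC (circles) and shY2-2 (squares), filled where the FDR is at most 0.05. The CLU peaks over the start codon lie lowest, at 1.13 and 1.10, and several of the peaks above 6, such as those of A2M and TFPI, are open symbols.

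The 37 members under the filter had FPKM values of at most 0.958. Of these, 31 were lower in shY2-2 and 6 higher, that is 83.8% lower, where 52.0% of all genes under the filter were lower. In shY2-2 11 of them were listed at 0, and in shNC 1. How many of all genes under the filter were listed at 0 was not counted, so these numbers are not read further. The number of fragments behind such values is unknown. Members with an FPKM of at least 0.5 in 1 library were, besides F2, F3, F8 and PLAT named above, C4BPA (0.549 and 0.159), ITGB2 (0.536 and 0.316) and ITGAM (0.444 and 0.571). Members under the filter that had peaks, besides F2, F3, F8 and PLAT, were BDKRB1, C2 and ITGB2 in both lists and C7 and ITGAX in shY2-2 only. The C7 and ITGAX peaks had the same recurring fold enrichment of 8.09 as A2M.

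Genes of related function were taken from lists to place the members. Of 38 other plasma proteins that the liver makes, 24 were listed and 8 kept, of which 7 were lower in shY2-2 and none passed a log2 ratio of 1 in size. The median log2 ratio of the 8 was -0.64. APOH, the phospholipid-binding beta-2-glycoprotein I, had an FPKM of 12.4 in shNC and 5.81 in shY2-2 (log2 ratio -0.97), CP, the copper protein ceruloplasmin, 6.32 and 3.87, and RBP4, the carrier of retinol, 3.42 and 1.38. Of 26 regulators of liver and acute-phase transcription, 22 were kept, 14 were lower, and the median was -0.36. FOXA2, a forkhead factor of endoderm, was the 1 regulator past the limits, at 19.4 and 7.09 (log2 ratio -1.33). The 3 regulators with the highest mean level were CEBPB (48.5 and 72.1), JAK1 (53.6 and 51.9) and OSMR (20.7 and 22.1). The log2 ratios of these 3 were 0.56, -0.05 and 0.09. The part of FOXA2 in the levels of the members was not tested.

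**Figure D5:**
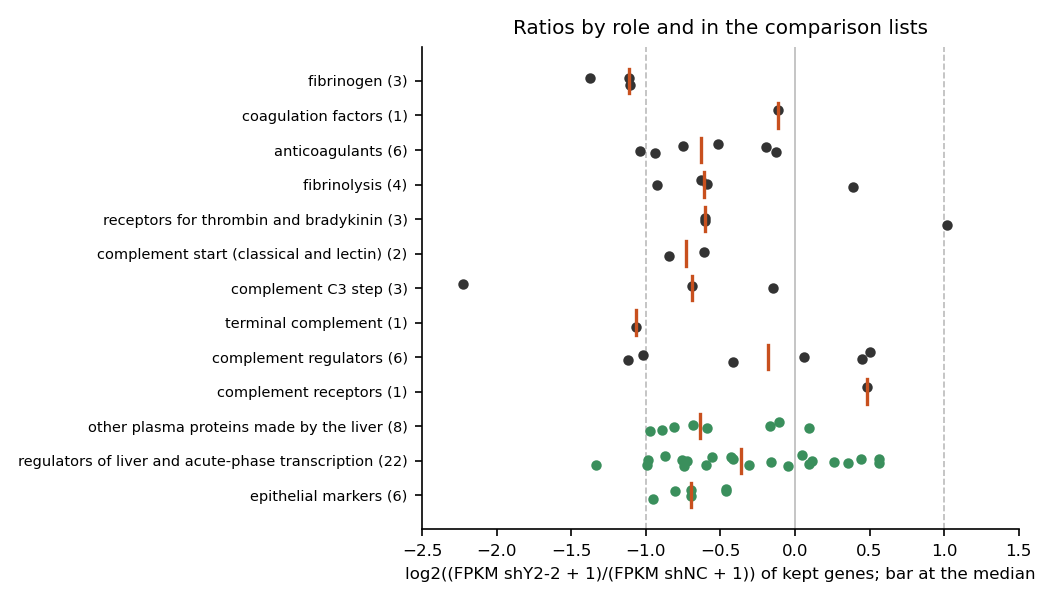
The log2 ratios of the kept members by role (black), and of kept genes of the comparison lists (green), each point a gene, with the number of genes in brackets and a bar at the median. The fibrinogen genes lie at or below -1.11 and the regulators of complement on both sides of 0, and the plasma proteins and epithelial markers have medians of -0.64 and -0.70.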

How the data were processed

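RNA-seq (input) and m6A-seq (IP) were analysed for shNC and shY2-2 A549 cells, 4 libraries, grouped by their labels. Per the labels and the methods of the study, reads were trimmed with fastp and mapped to GRCh38 with HISAT2, the deposited FPKM values were calculated with StringTie, and peaks were called with exomePeak and annotated with ChIPseeker; versions and the annotation release are not given in the sources used here. For each peak the authors deposited a p-value, a log10 FDR score and a fold enrichment, which is the ratio of IP to input. FPKM values were not whole multiples of a read step, so neither depth nor counting error can be derived from them. The libraries were prepared with dUTP; whether strand was used in quantification is not given in the sources used here. Positions in transcripts used GENCODE release 44, which holds all 67 members, 12 of them with the span of the deposited table.

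Ratios used a pseudocount of 1 and genes that reached an FPKM of 1 in either input library. Peaks at a repeated position were counted once. Kept members could be named by rule; members under the filter were named where they had a peak or an FPKM of at least 0.5; of the comparison lists, genes past the limits and the 3 highest were named, and RBP4 of the plasma proteins after its values were seen. The members and lists were chosen with earlier results of these data known. Some genes are not reported here by name. No column of FPKM was left without a sample. The steps were tested on simulated data. Tables were computed with pandas 2.3.3 and NumPy 2.4.6 in Python 3.11.15, sequences were read with pysam 0.24.0, and plots were drawn with matplotlib 3.10.9. Alternatives were other pseudocounts, FPKM filters, centring, stricter peak limits and another overlap rule.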

Additional observations from a re-analysis of the deposited data

How the results depend on the processing

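Centring the ratios on the median of all kept genes changed the sign of no kept member and moved none by 0.1 or more. The number of the 30 members below -1 and above 1 depended on the pseudocount, and so did the share of all kept genes. With 0.1 they were 12 and 2, against 4.91% and 2.57% of all kept genes. With 5 they were 1 (C3) and 0, against 0.489% and 0.351%. The median log2 ratio was -0.74 with 0.1, -0.36 with 5 and -0.15 over all 67 members without a filter. When either library had to reach an FPKM of 5, 5 of 18 members were below -1. The share over all genes at that filter was not computed. At an FDR of at most 0.05, 17 members had a peak in shY2-2 and 13 in both lists, from 38 shNC and 25 shY2-2 peaks, of which 19 and 19 met. At an FDR of at most 0.001, 13 members had a peak in shNC, 12 in shY2-2 and 10 in both, from 19 and 15 peaks, of which 13 and 13 met. With a fold enrichment of at least 2, 20 shNC and 19 shY2-2 member peaks met. These fewer peaks follow from the limits themselves. The other 28 of 50 recomputed counts and medians stayed within 1.5 times or 0.1 on the log2 scale, among them 12 added after the data were seen, which left out members with shared exons, members under an FPKM of 1 in either library, or peaks in exons of another gene. Without the latter peaks, 25 shNC and 28 shY2-2 member peaks met. No paired analysis was possible because each condition has 1 library of each kind. The depth behind a value is unknown, and with 1 library per condition a difference between cultures and an effect of the shRNA cannot be told apart.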

Other observations

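The genes around the members were read from the same table. Next to the fibrinogen genes, PLRG1, a splicing factor gene, had an FPKM of 9.16 in shNC and 9.02 in shY2-2 (log2 ratio -0.02), while DCHS2 and LRAT, the next genes on the outer sides, were under the filter. On chromosome 5, F2RL1, the trypsin receptor PAR2, which the KEGG term in the table does not hold, stood at 84.8 and 79.5 (log2 ratio -0.09), so that the neighbouring receptor genes F2RL2, F2R and F2RL1 had ratios of 1.02, -0.60 and -0.09. In the cluster of complement regulators on chromosome 1, CD55 and CD46 were kept, and C4BPA, C4BPB, CR1 and CR2 were under the filter. C4BPA stood at 0.549 and 0.159. C4BPB, CR1 and CR2 stood at 0.0198 or below in shNC and at 0 in shY2-2, too low for a direction to be read. Why neighbouring genes differed was not tested.

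Regulators that were not past the limits but that lie close to them were HNF4A, a nuclear receptor of hepatocytes, at 3.87 and 1.44 (log2 ratio -0.99), and IL6ST, the signal chain of the IL-6 receptor, at 18.5 and 8.82 (log2 ratio -0.99). STAT3 stood at 9.60 and 9.96. SOCS3, a feedback inhibitor that STAT3 induces, stood at 9.82 and 13.7 (log2 ratio 0.44). The choice of these 4 regulators was made with their values known.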
